A study of Danio rerio with 6 samples.

Results

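Cells carrying an nkx2.2a reporter were set against cells carrying a dbx1b reporter, 2 genes that mark the p3 and the p0 progenitor domain of the zebrafish ventral neural tube. The comparison holds 4 of the 6 RNA-sequencing libraries of the series, chosen by their labels alone: 2 from TgBAC(nkx2.2a:memGFP) embryos and 2 from TgBAC(dbx1b:GFP) embryos, numbered 1 and 2 in each sort. The other 2, from TgBAC(olig2:GFP) embryos, entered the fit so that all groups share an estimate of the spread. All embryos were labelled wild type and were 14 hours old, and no treatment is named. Brain and tail were cut away, the trunks were taken apart by pipetting in FACSMax, and the GFP-positive cells were sorted and frozen in Trizol. Each BAC (bacterial artificial chromosome) reporter carries regulatory sequence of its gene, so a sort holds the cells in which that BAC drove GFP, whatever their tissue. The nkx2.2a line carries a membrane form of GFP and the dbx1b line is labelled GFP only, so line, form of GFP, sort and group coincide and cannot be told apart. The labels do not say that the libraries of a sort came from separate pools of embryos, so the p-values measure only the spread between these libraries, which may be technical.

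Progenitors of the ventral neural tube take their identity from a gradient of Hedgehog signal that is released by the notochord and the floor plate. Transcription factors that the signal induces, such as those of the Nkx2.2 and Nkx6 families, and factors that it represses, such as those of the Dbx and Pax6 families, repress each other and so divide the tube into stacked domains. The p3 domain lies next to the floor plate and gives V3 interneurons, the pMN domain above it gives motor neurons, and the p0 domain, further dorsal, gives V0 interneurons. In a trunk of this age the tail end is still growing out of the tailbud, where Wnt, FGF and retinoic acid signals set the Hox genes of each level.

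Fragments mapped to transcripts numbered 5.83 and 3.59 M (28.1% and 19.6% of all) for nkx2.2a, and 5.90 and 6.93 M (33.4% and 29.7% of all) for dbx1b. Levels are given as CPM, fragments of a gene per 1000000 fragments of the library, and a single fragment was worth 0.172 and 0.278 CPM for nkx2.2a, against 0.169 and 0.144 CPM for dbx1b, before scaling. Counts were summed per gene symbol, and 16956 of 30677 symbols passed the filter on low counts. Libraries of a sort differed widely: of 13499 symbols at 5 CPM or more, 46.6% differed by more than 2-fold between the nkx2.2a libraries and 28.4% between the dbx1b libraries, with a median of 1.89-fold in the nkx2.2a sort and 1.49-fold in the dbx1b sort. With this spread, edgeR's quasi-likelihood test called 1 symbol at a Benjamini-Hochberg adjusted p under 0.05, nkx2.2a itself, which is 0.0059% of those tested, while 700 higher (4.13%) and 494 lower (2.91%) had an unadjusted p under 0.05 and DESeq2 called 307 (1.81%). The edgeR count was 5 without nkx2.2a library 1, 5 without nkx2.2a library 2, 95 without olig2 library 1, 82 without olig2 library 2, 9 without dbx1b library 1 and 25 without dbx1b library 2. For a single gene, an exact permutation test of 2 libraries against 2 cannot give a two-sided p below 0.333. The account below therefore rests on the levels in each library, and calls a gene separated where both libraries of one sort lay beyond both of the other. Over all symbols tested, 3278 (19.3%) were separated with the nkx2.2a libraries above and 3613 (21.3%) with them below, and these are the shares against which each family is read. Were the sorts alike, an untied gene would still be separated in 1 direction or the other with a probability of 0.333. Separation alone therefore does not show that a gene differs. Separated by a gap of at least 1.5 times were 1639 (9.67%) above and 1575 (9.29%) below. A gene that is high in 1 sort alone passes the filter, so the counts describe the tested symbols, not whole families.

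The gene behind each reporter lay on the side its label gives. Transcripts of nkx2.2a stood at 491 and 368 CPM in the nkx2.2a libraries, at 8.26 and 27.2 CPM in the olig2 libraries and at 0.529 and 1.27 CPM in the dbx1b libraries. In edgeR's quasi-likelihood test its log2 fold change was 8.83 ± 0.81 (SE), with an adjusted p of 0.00884, and it stayed between 8.37 and 9.60 and called under each of 14 alternative settings. Transcripts of dbx1b stood at 11.4 and 49.9 CPM in the nkx2.2a libraries and at 179 and 216 CPM in the dbx1b libraries, and the sorts did not overlap. Here and below, a value with ± and no unit is a log2 fold change of nkx2.2a over dbx1b libraries with its SE. Its log2 fold change of -2.70 ± 0.71 missed the edgeR threshold (adjusted p = 0.396) and passed with DESeq2 (-2.64, adjusted p = 0.014) and with no filter on low counts (-2.71, edgeR adjusted p = 0.00424). The nkx2.2a sort thus held dbx1b transcripts at a level well above 1 fragment in both libraries, while the dbx1b sort held 12 nkx2.2a fragments in all. In bulk samples a lower level can come from fewer cells of a type or from less RNA per cell, and these cannot be told apart. The neural progenitor gene sox3 stood at 198 and 162 CPM in the nkx2.2a libraries, against 196 and 148 CPM in the dbx1b libraries, and sox19a at 601 and 784 CPM against 646 and 459 CPM. For both genes, and for sox19b, the ranges of the sorts overlapped, whereas sox2 was separated above, at 58.6 and 85.7 CPM in the nkx2.2a libraries against 43.4 and 45.1 CPM in the dbx1b libraries.

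Among transcription factors, 729 of 968 symbols in 9 families were tested. Of these, 149 (20.4%) were separated with the nkx2.2a libraries above and 192 (26.3%) with them below, close to the share over all symbols for the first and above it for the second. Without the Hox genes the counts were 149 (21.7%) above and 159 (23.1%) below among 687. An unadjusted edgeR p under 0.05 was reached by 6.72% with higher and 8.37% with lower levels, beside 4.13% and 2.91% over all symbols. Without the Hox genes these shares of factors were 7.13% with higher and 5.97% with lower levels. Homeobox genes outside the Hox clusters had 43 of 170 (25.3%) above and 34 (20%) below. Forkhead genes had 11 of 35 (31.4%) above and 8 (22.9%) below. Sox genes had 5 of 21 (23.8%) above and 3 (14.3%) below, and bHLH genes 15 of 85 (17.6%) above and 17 (20%) below. For zinc finger genes the counts were 30 of 138 (21.7%) above and 31 (22.5%) below, and for T-box genes 2 of 15 (13.3%) above and 4 (26.7%) below. Nuclear receptors had 8 of 52 (15.4%) above and 11 (21.2%) below, and the remaining factors 36 of 175 (20.6%) above and 51 (29.1%) below. Over all symbols the shares were 19.3% above and 21.3% below, and several of these families lay near them.

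Homeobox genes that Hedgehog induces next to the floor plate were far more abundant in the nkx2.2a libraries than in the dbx1b libraries. Transcripts of nkx2.9, an Nkx2.2-family gene, stood at 122 and 47.8 CPM in the nkx2.2a libraries and at 0.176 and 2.97 CPM in the dbx1b libraries, with a log2 fold change of 5.69 ± 1.03 (edgeR adjusted p = 0.153). Its paralogue nkx2.2b stood at 87.3 and 94.9 CPM against 0.706 and 9.61 CPM (4.12 ± 1.07). In the olig2 libraries nkx2.9 stood at 103 and 104 CPM, within the range of the nkx2.2a libraries, and nkx2.2b at 26.6 and 82.2 CPM. Nkx6 genes, which span p3 and the domains just above it, were separated too: nkx6.1 stood at 138 and 131 CPM in the nkx2.2a libraries against 26.6 and 19.9 CPM in the dbx1b libraries, and nkx6.2 at 128 and 168 CPM against 31.6 and 57.8 CPM. For nkx6.1 the olig2 libraries, at 296 and 186 CPM, lay above both other sorts. The log2 fold changes of the Nkx6 pair were 2.53 ± 0.46 and 1.73 ± 0.47, smaller than those of nkx2.9 and nkx2.2b. On the list of motor neuron progenitor and motor neuron genes, 6 of 11 tested members (54.5%) were separated above and 1 (9.09%) below. Over all symbols the shares were 19.3% and 21.3%. Transcripts of olig2 stood at 19.1 and 71.3 CPM in the nkx2.2a libraries, against 221 and 128 CPM in the olig2 libraries and 1.76 and 4.1 CPM in the dbx1b libraries. Those of olig1 stood at 0.157 and 92.8 CPM in the nkx2.2a libraries, with 0 fragments in either dbx1b library, so nkx2.2a library 2 supplied nearly all of the difference. The motor neuron gene mnx1 lay on the other side, at 5.65 and 4.9 CPM in the nkx2.2a libraries against 32.8 and 71.5 CPM in the dbx1b libraries. Among forkhead genes, foxa, of the FoxA family that includes floor plate regulators, stood at 222 and 203 CPM against 14.6 and 54.1 CPM, and the SoxB1 gene sox1b, of the neural tube, at 91.9 and 102 CPM against 2.29 and 7.91 CPM (4.23 ± 0.84). Both were separated, and for sox1b the olig2 libraries, at 19.3 and 11.4 CPM, also lay below both nkx2.2a libraries.

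Genes of the intermediate neural tube were less abundant in the nkx2.2a libraries. Transcripts of pax6a, a paired-box gene of intermediate progenitors that Hedgehog represses near the floor plate, stood at 32.5 and 27.9 CPM in the nkx2.2a libraries and at 159.7 and 142 CPM in the dbx1b libraries (-2.32 ± 0.44, edgeR adjusted p = 0.171). The olig2 libraries, at 133 and 159.8 CPM, lay with the dbx1b libraries for this gene. The other Dbx1 gene, dbx1a, stood at 17.1 and 5.82 CPM against 136 and 125 CPM, the Iroquois gene irx3a at 59.1 and 69.2 CPM against 162 and 173 CPM, and prdm12b, a zinc finger gene of the p1 domain, at 4.23 and 3.06 CPM against 79.9 and 24 CPM. None of these levels overlapped between the sorts. In the list of p0 to p2 genes, 8 of 19 tested members (42.1%) were separated below and 3 (15.8%) above, beside 21.3% and 19.3% over all symbols. Their median log2 fold change was -1.38, beside -0.0042 over all symbols. Of 23 tested genes of the dorsal neural tube, 8 (34.8%) were below and 4 (17.4%) above (median -0.35). The dorsal progenitor gene olig3 was among those above, at 12.1 and 26.3 CPM in the nkx2.2a libraries against 5.29 and 1.55 CPM in the dbx1b libraries, as was the proneural gene ascl1a, at 40.8 and 21.1 CPM against 0.529 and 7.21 CPM.

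**Figure D1:**
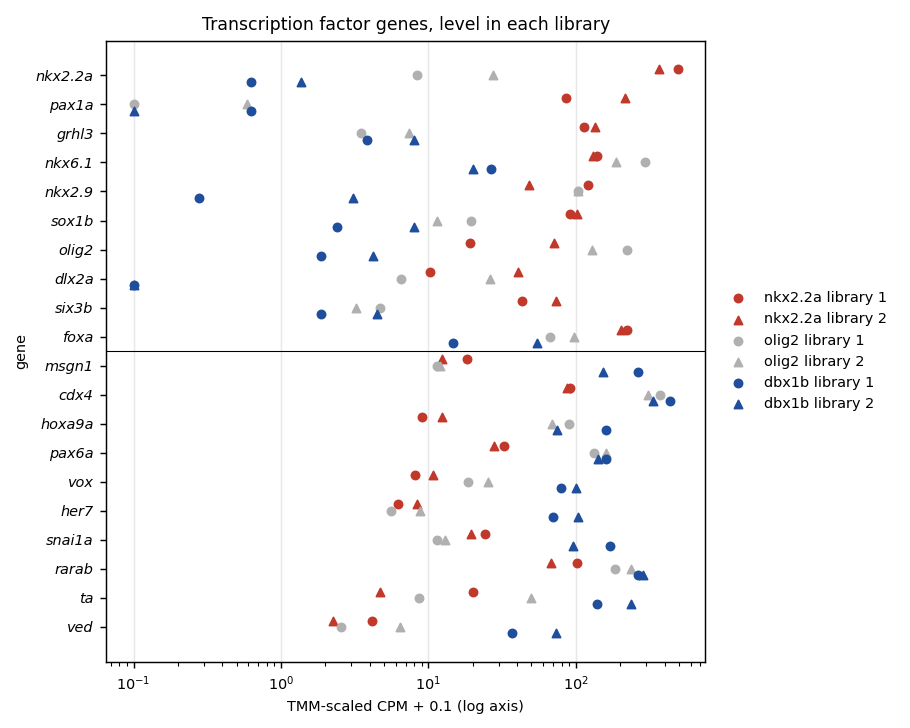
Level of the 20 transcription factor genes named by the smallest p in each direction, as TMM-scaled CPM plus 0.1 on a log axis, with 1 point per library. Genes were chosen among separated ones, which fixes the sides. Both nkx2.2a points (red) lie right of both dbx1b points (blue) in the upper 10 genes and left of them in the lower 10. The upper 10 include the reporter gene nkx2.2a, and the olig2 points (grey) are drawn for position.

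Some factors that were nearly absent from the dbx1b libraries are known from tissues other than the trunk neural tube. The paired-box gene pax1a, of sclerotome and pharyngeal pouches, stood at 85.6 and 216 CPM in the nkx2.2a libraries and at 0.529 and 0 CPM in the dbx1b libraries. That is 1251 fragments against 3, a ratio of 551 (95% counting interval 188 to 2676), and its edgeR adjusted p was 0.135. The related gene pax9 stood at 8 and 42.9 CPM in the nkx2.2a libraries and had 0 fragments in the dbx1b libraries, at least 84.1-fold higher against a floor of 3 fragments over the sort. Both genes were at or near 0 in the olig2 libraries as well, at 0 and 0.485 CPM for pax1a. The epidermal regulator grhl3, a grainyhead-like gene, stood at 113 and 135 CPM in the nkx2.2a libraries against 3.71 and 7.91 CPM in the dbx1b libraries (4.41 ± 0.77). Forebrain genes formed another such set, although brains had been removed: six3b, of the anterior forebrain and eye field, stood at 43.0 and 73.5 CPM against 1.76 and 4.38 CPM, vax1, of the ventral forebrain, at 69.6 and 226 CPM against 0 and 0.706 CPM, and fezf2, a forebrain zinc finger gene, at 34.5 and 62.8 CPM against 6.18 and 5.09 CPM. The distal-less gene dlx2a, of forebrain and cranial neural crest, stood at 10.2 and 40.4 CPM in the nkx2.2a libraries with 0 fragments in the dbx1b libraries, at least 86.8-fold higher. The telencephalic gene emx3 stood at 1.88 and 40.4 CPM against 0.176 and 0.283 CPM, so that nkx2.2a library 2 stood alone. Of 39 tested members of the brain list, 15 (38.5%) were separated above and 5 (12.8%) below, beside 19.3% and 21.3% over all symbols. The list summed to 1377 and 1906 CPM in the nkx2.2a libraries against 1113 and 1296 CPM in the dbx1b libraries. Its defining hindbrain gene egr2b lay the other way, at 150.4 and 192 CPM in the nkx2.2a libraries against 205 and 211 CPM in the dbx1b libraries. How far brain cells left in the dissected trunks enter these levels was not tested.

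The Hox genes, which give cells their position along the body axis, were the most one-sided family of factors. Of 42 tested members of 49, 33 (78.6%) were separated with the nkx2.2a libraries below and 0 with them above. Over all symbols the shares were 21.3% and 19.3%. The median log2 fold change of the Hox genes was -1.69. Paralog groups are numbered from 1 for the most anterior to 13 for the most posterior genes. In groups 1 to 4, 9 of 14 tested genes were separated below, with a median of -1.42, in groups 5 to 8 9 of 11, with -1.57, and in groups 9 to 13 15 of 17, with -2.27. Their summed level was 664 and 419 CPM in the nkx2.2a libraries against 1386 and 1119 CPM in the dbx1b libraries for groups 1 to 4, and 172 and 129 CPM against 922 and 682 CPM for groups 9 to 13. In group 13, hoxa13b and hoxd13a had log2 fold changes of -1.04 ± 2.08 and -1.23 ± 1.49 and overlapped between the sorts. The difference between paralog groups was not tested. Among posterior genes, hoxa9a stood at 8.94 and 12.2 CPM in the nkx2.2a libraries and 159 and 74.0 CPM in the dbx1b libraries (-3.46 ± 0.63, edgeR adjusted p = 0.153), and hoxa10b at 5.49 and 0.306 CPM against 78.9 and 35.3 CPM (-4.22 ± 1.13). For hoxa9a the olig2 libraries, at 89.7 and 68.4 CPM, were far nearer to the dbx1b libraries. This did not hold for every posterior gene, and summed over groups 9 to 13 the olig2 libraries lay between the sorts, at 476 and 519 CPM. Among anterior genes, hoxa1a overlapped between the sorts, at 60.7 and 28.5 CPM in the nkx2.2a libraries against 38.3 and 49.7 CPM in the dbx1b libraries, whereas hoxb1b, which is active early in the hindbrain and trunk, did not, at 149.8 and 87.6 CPM against 371 and 309 CPM. The caudal gene cdx4, which activates Hox genes in the posterior body, stood at 91.3 and 87.3 CPM in the nkx2.2a libraries, 374 and 307 CPM in the olig2 libraries and 437 and 335 CPM in the dbx1b libraries (-2.11 ± 0.37, edgeR adjusted p = 0.153 for nkx2.2a over dbx1b). Here the nkx2.2a sort alone lay apart.

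**Figure D2:**
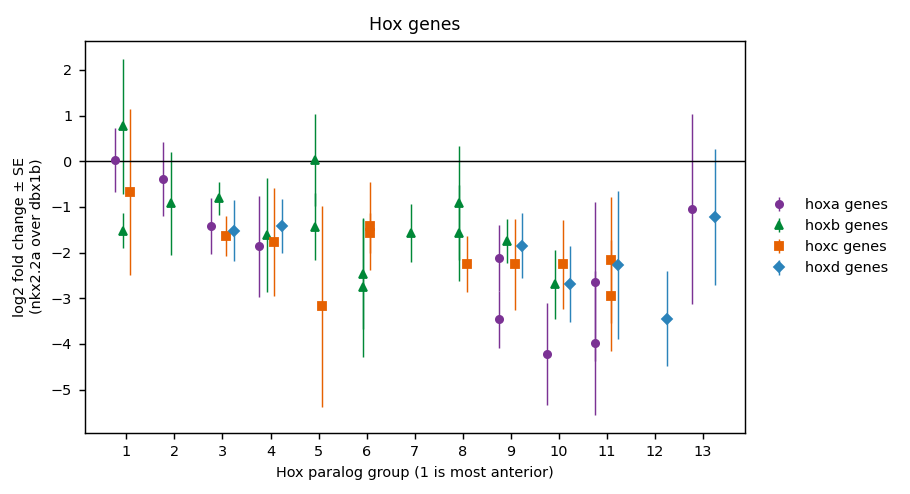
Log2 fold change (nkx2.2a over dbx1b) of each of the 42 tested Hox genes against its paralog group, with bars of 1 SE and a colour and shape for each cluster. Points of groups 1 and 2 lie between -1.52 and 0.77, those of groups 9 to 12 between -1.74 and -4.22, and both of group 13 at -1.04 and -1.23.

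Genes of presomitic mesoderm and tailbud, the source of the somites, made up a second block of factors with lower levels in the nkx2.2a libraries. The bHLH gene msgn1, which drives presomitic differentiation, stood at 18.2 and 12.2 CPM in the nkx2.2a libraries, against 265 and 153 CPM in the dbx1b libraries (-3.77 ± 0.58, edgeR adjusted p = 0.135). The segmentation clock repressor her7 stood at 6.12 and 8.27 CPM against 70.4 and 103 CPM, and her1 at 7.37 and 16.5 CPM against 113 and 54.5 CPM. T-box genes followed: ta, a brachyury gene, stood at 20.1 and 4.59 CPM against 140.1 and 236 CPM, tbx16 at 5.49 and 38.3 CPM against 147 and 164 CPM and tbx6 at 41.9 and 239.7 CPM against 621 and 674 CPM. In the nkx2.2a sort, tbx16 and tbx6 were several times higher in library 2 than in library 1, yet still below both dbx1b libraries. The homeobox repressor genes vox and ved, which act on the ventral side of the early embryo, stood at 8 and 10.7 CPM and at 4.08 and 2.14 CPM in the nkx2.2a libraries, against 79.6 and 100.5 CPM and 36.9 and 73.1 CPM in the dbx1b libraries. The Snail-family gene snai1a stood at 24.1 and 19.3 CPM against 172 and 95.7 CPM, and the even-skipped-like gene eve1 at 1.57 and 0 CPM against 27.9 and 77.3 CPM. For msgn1, her7, her1 and snai1a the olig2 libraries were about as low as the nkx2.2a libraries, at 11.3 and 11.9 CPM for msgn1 and 11.3 and 12.9 CPM for snai1a. Of 31 tested members of 36, 23 (74.2%) were separated below and 5 (16.1%) above, with a median of -2.20, beside 21.3% and 19.3% over all symbols. The summed level of the list was 781 and 908 CPM in the nkx2.2a libraries against 3607 and 3524 CPM in the dbx1b libraries, and each of its defining markers (msgn1, tbx16, tbx6, her1, her7 and wnt8a) was above 0 in all 4. Whether presomitic or tailbud cells within the dbx1b sort account for the Hox, Wnt, FGF or Notch genes that are lower beside them was not tested.

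Other factor genes with low levels in the nkx2.2a libraries are known from mesodermal tissues. The zinc finger gene osr2, of kidney and fin mesoderm, had 0 fragments there and stood at 16.4 and 19.4 CPM in the dbx1b libraries, at least 58.0-fold lower in the nkx2.2a sort against the floor. The bHLH gene scxa, of tendon progenitors, stood at 0.157 and 0 CPM against 34.6 and 11.2 CPM. The related gene osr1 was separated on the same side, at 9.25 and 1.22 CPM against 33.0 and 48.6 CPM, and so was the somite gene foxc1a, at 15.21 and 9.49 CPM against 97.2 and 47.1 CPM. Of 29 tested members of the somite and muscle list, 7 (24.1%) were above and 6 (20.7%) below, beside 19.3% and 21.3% over all symbols. The median of these members was 1.03. Their summed level was 3189.8 and 1075 CPM in the nkx2.2a libraries against 736 and 633 CPM in the dbx1b libraries, with nkx2.2a library 1 far above the rest. The slow myosin gene smyhc1 shows that library most clearly, at 1059 and 7.35 CPM in the nkx2.2a libraries against 52.4 and 40.1 CPM in the dbx1b libraries, which overlap. The muscle actin gene actc1b stood at 191 and 3.67 CPM against 7.77 and 12.6 CPM, and the related actc1a, which was separated, at 716 and 186 CPM against 51.7 and 51.7 CPM (3.13 ± 0.60, edgeR adjusted p = 0.171). The part of muscle cells in nkx2.2a library 1 in these values was not tested.

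Surface and secreted molecules had more symbols separated above than below. Of 804 tested symbols among 1369 in 15 surface and 8 secreted families, 220 (27.4%) were separated with the nkx2.2a libraries above and 153 (19.0%) with them below, beside 19.3% and 21.3% over all symbols. For secreted molecules the counts were 106 (31.5%) above and 73 (21.7%) below among 337, and for surface molecules 114 (24.4%) above and 80 (17.1%) below among 467. An unadjusted edgeR p under 0.05 was reached by 86 with higher and 39 with lower levels (10.7% and 4.85%). The families with the highest shares above, among those with 20 or more tested members, were other growth factors and chemokines (16 of 42), matrix and proteoglycan enzymes (25 of 71), extracellular matrix (38 of 116) and guidance ligands (11 of 36). Those with the highest shares below were Wnt ligands and inhibitors (9 of 24) and BMP and TGF-beta ligands and antagonists (11 of 32), and among smaller families FGF ligands (7 of 16) and Notch receptors and ligands (5 of 12).

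**Figure D3:**
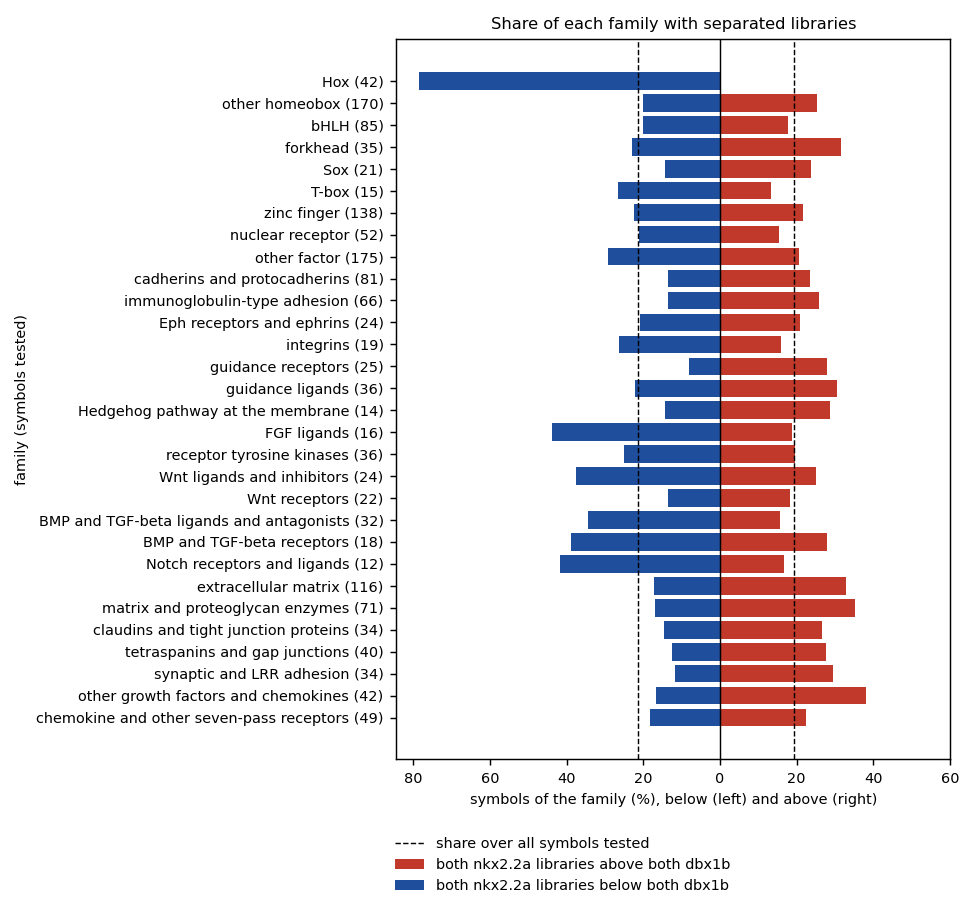
Share of the tested symbols of each family with both nkx2.2a libraries above both dbx1b libraries (red, to the right) or below them (blue, to the left), in percent, with the number tested in brackets. Dashed lines mark the shares over all 16956 symbols, 19.3% above and 21.3% below, and the Hox bar reaches 78.6% below with 0 above.

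Hedgehog ligands are made by notochord and floor plate, and both tested ligand genes were separated above. Transcripts of shha stood at 111 and 189.8 CPM in the nkx2.2a libraries against 25.6 and 45.1 CPM in the dbx1b libraries (2.09 ± 0.58), and those of shhb at 64.4 and 47.8 CPM against 15 and 18.1 CPM (1.76 ± 0.92). The receptor gene ptch1, itself induced by Hedgehog signal, stood at 118 and 252 CPM in the nkx2.2a libraries against 99.0 and 112 CPM in the dbx1b libraries, and the transcriptional effector gene gli1, another target, at 165 and 298 CPM against 94.4 and 129 CPM. Both were separated by narrow gaps and had log2 fold changes of 0.81 ± 0.56 and 1.05 ± 0.43. Other components showed mixed levels. The coreceptor gene cdon overlapped between the sorts, at 67.7 and 227 CPM against 85.9 and 83.4 CPM. The effector gene gli2b was separated below, at 79.3 and 53 CPM against 147 and 192 CPM, and so was scube2, whose product helps release Hedgehog ligand from cells, at 33.7 and 30.3 CPM against 258 and 151 CPM. Over the whole list of Hedgehog components and targets, 9 of 21 tested members (42.9%) were above and 5 (23.8%) below, beside 19.3% and 21.3% over all symbols. The median of the list was 0.62. The endosulfatase gene sulf2b, whose enzyme trims sulfate groups from heparan sulfate outside the cell, had the smallest p of the surface and secreted molecules named here, at 283 and 126 CPM in the nkx2.2a libraries and 17.1 and 13 CPM in the dbx1b libraries (3.76 ± 0.56, edgeR adjusted p = 0.135). The olig2 libraries stood with the nkx2.2a libraries for sulf2b, at 177 and 119 CPM.

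Axon guidance molecules of the ventral midline were among the separated genes. Netrins attract commissural axons: ntn1b stood at 134 and 127 CPM in the nkx2.2a libraries against 11.3 and 23.6 CPM in the dbx1b libraries (2.9 ± 0.57), and ntn1a at 183 and 119 CPM against 43.2 and 44.2 CPM (1.79 ± 0.49). The Slit gene slit1a, whose product repels axons, stood at 204 and 226 CPM against 58.2 and 57.6 CPM (1.89 ± 0.41). For all of these the olig2 libraries lay between the other sorts, at 106 and 77.1 CPM for ntn1b and 100.1 and 116 CPM for slit1a. Their partners at the cell surface included neo1, which encodes neogenin, a receptor for netrins and repulsive guidance molecules, at 147 and 182 CPM in the nkx2.2a libraries against 51.2 and 66.0 CPM in the dbx1b libraries. Its ligand gene rgma stood at 308 and 324 CPM against 125 and 162 CPM (1.14 ± 0.36). The netrin receptor gene unc5db had 54 fragments in the nkx2.2a libraries but 0 in the dbx1b libraries, at least 23.8-fold higher. The semaphorin receptor gene plxnd1 stood at 18.8 and 170.2 CPM against 9 and 11.2 CPM, a difference that nkx2.2a library 2 supplied for the most part. Against the trend of the family, sema5a, a semaphorin gene, stood at 0.47 and 0.306 CPM in the nkx2.2a libraries and 19.4 and 24 CPM in the dbx1b libraries (-5.68 ± 1.57). In all, 11 of 36 tested guidance ligands (30.6%) were above and 8 (22.2%) below, beside 19.3% and 21.3% over all symbols. Of 25 guidance receptors, 7 (28%) were above and 2 (8%) below. Ephrins and their receptors gave 5 (20.8%) above and 5 (20.8%) below of 24, near the shares over all symbols. Among them efnb3b, an ephrin gene whose mouse counterpart acts at the spinal cord midline, stood at 192 and 179 CPM against 43.8 and 116 CPM, and the receptor gene ephb3 at 144 and 119 CPM against 247 and 291 CPM.

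Several signals of the posterior body had lower levels in the nkx2.2a libraries. The FGF ligand gene fgf8a stood at 35.4 and 15.9 CPM in the nkx2.2a libraries and 134 and 127 CPM in the dbx1b libraries (-2.34 ± 0.67, edgeR adjusted p = 0.451), and fgf20a at 0.314 and 0 CPM against 15.4 and 8.2 CPM. Feedback genes that FGF induces had 9 of 21 tested members (42.9%) below and 4 (19.0%) above, beside 21.3% and 19.3% over all symbols. Their median log2 fold change was -0.24. Sums overlapped, at 2070 and 2525 CPM in the nkx2.2a libraries against 2441 and 2572 CPM in the dbx1b libraries. Among them dusp6, a MAP kinase phosphatase gene, was below, at 104 and 54.2 CPM against 199.6 and 166 CPM. The receptor gene fgfr3 was above, at 281 and 218 CPM against 158 and 113 CPM. One gene of the FGF family, counted among FGF ligands by its symbol alone, lay the other way in a single library: fgf13a stood at 1.57 and 94.9 CPM against 1.06 and 0 CPM. Wnt genes lay on both sides: 11 of 28 tested members of the Wnt list (39.3%) were below and 7 (25%) above. For Wnt ligands and inhibitors the counts were 9 of 24 (37.5%) below and 6 (25%) above. The noncanonical ligand gene wnt5b stood at 12.7 and 1.22 CPM in the nkx2.2a libraries against 133 and 112 CPM in the dbx1b libraries, and the receptor gene fzd10 at 127 and 90.3 CPM against 470.1 and 251 CPM (-1.73 ± 0.44). The Wnt target sp5l stood at 31.7 and 20.5 CPM against 106 and 115 CPM, and the coreceptor gene ptk7a, of planar polarity, at 38.3 and 32.1 CPM against 156 and 112 CPM. On the other side, the secreted Wnt inhibitor gene sfrp5 stood at 111 and 118 CPM against 23.8 and 24.2 CPM, and the ligand gene wnt7bb at 7.21 and 14.1 CPM against 0 and 0.141 CPM, a ratio of fragments of 122 (95% counting interval 21.3 to 4853). All of these except fgf13a and fgfr3 had clear gaps between the sorts. For fgf13a, nkx2.2a library 1 was barely above dbx1b library 1, and fgfr3 was separated by less than 1.5 times.

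BMP genes leaned towards lower levels in the nkx2.2a libraries. Of 30 tested members of the BMP list, 16 (53.3%) were separated below and 6 (20%) above, beside 21.3% and 19.3% over all symbols. The median of the list was -0.70. The secreted antagonist gene szl, or sizzled, which BMP signal induces, stood at 6.12 and 0.612 CPM in the nkx2.2a libraries against 47.3 and 129.9 CPM in the dbx1b libraries (-4.65 ± 1.18). The Nodal antagonist gene dand5, known from the tailbud organ that sets left and right, stood at 0.314 and 0.612 CPM against 22.9 and 21.3 CPM (-5.56 ± 1.5). It is not on the BMP list and was counted here with the Wnt ligands and inhibitors. The ligand gene bmp2a stood at 0.627 and 0 CPM against 6.71 and 21.8 CPM, the ligand gene gdf11, which in mouse acts in posterior patterning, at 8.31 and 0.612 CPM against 62.8 and 28.3 CPM, and the tolloid-like protease gene tll1 at 19.1 and 50.8 CPM against 122 and 171 CPM. All 5 were low in both nkx2.2a libraries relative to both dbx1b libraries. Among Notch receptors and ligands, 5 of 12 (41.7%) were below and 2 (16.7%) above, with a median of -0.20. On the wider list of neural progenitor and Notch genes, 7 of 27 (25.9%) were below and 4 (14.8%) above. The median of that list was -0.07, and its share below was near the 21.3% over all symbols. The Delta gene dlc, used in neurons and in the segmentation clock, stood at 59.0 and 30.6 CPM in the nkx2.2a libraries against 356 and 284 CPM in the dbx1b libraries (-2.83 ± 0.54, edgeR adjusted p = 0.171), and the ligand gene jag1a at 6.12 and 22.3 CPM against 105 and 54.4 CPM. The receptor gene notch1a stood at 237 and 172 CPM against 386 and 337 CPM, and the Hes-family gene hes6 at 34.7 and 30.6 CPM against 93.7 and 84.5 CPM. In the retinoic acid list, 7 of 22 tested members (31.8%) were below and 3 (13.6%) above. The degrading enzyme gene cyp26a1 stood at 30.4 and 21.4 CPM in the nkx2.2a libraries against 337 and 247 CPM in the dbx1b libraries (-3.49 ± 0.74), and the receptor gene rarab at 102 and 67.7 CPM against 262 and 285 CPM (-1.69 ± 0.40). The synthesis gene aldh1a3 had 50 fragments in the nkx2.2a libraries but 0 in the dbx1b libraries, at least 22-fold higher, with most of them in nkx2.2a library 2.

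Extracellular matrix genes were the largest secreted family, with 116 tested. Of these, 38 (32.8%) were separated above and 20 (17.2%) below, beside 19.3% and 21.3% over all symbols. The fibril-associated collagen gene col9a2, of cartilage and notochord, stood at 133 and 182 CPM in the nkx2.2a libraries against 8.82 and 17.2 CPM in the dbx1b libraries (3.59 ± 0.60, edgeR adjusted p = 0.153). Its partner gene col9a1b stood at 33.7 and 92.8 CPM against 4.06 and 4.24 CPM, and the main cartilage and notochord collagen gene col2a1a at 294 and 538 CPM against 226 and 155 CPM. The collagen gene col7a1l stood at 245 and 269 CPM against 84.7 and 65.1 CPM, with the olig2 libraries above both sorts at 461 and 382 CPM. The basement membrane gene frem3 stood at 200.2 and 151 CPM against 8.47 and 24.6 CPM (3.40 ± 0.88), and the matricellular gene ctgfa at 169 and 151 CPM against 36.4 and 28.7 CPM (2.30 ± 0.52). None of these 6 overlapped between the sorts. The matrilin gene matn4 had 55 fragments in the nkx2.2a libraries but 0 in the dbx1b libraries, at least 24.2-fold higher. Several of these genes are notochord genes, and 12 of 24 tested members of the notochord list (50%) were above and 4 (16.7%) below. Among its defining markers, noto stood at 3.92 and 0.306 CPM in the nkx2.2a libraries against 6.35 and 3.53 CPM in the dbx1b libraries, col8a1a at 33.4 and 20.8 CPM against 28.94 and 30.7 CPM and ntd5 at 61.6 and 40.4 CPM against 23.6 and 40.0 CPM. Of the defining markers, ntd5 alone was separated above, by a narrow gap, while noto and col8a1a overlapped and ta was below. The list summed to 4069 and 5859 CPM in the nkx2.2a libraries and 2632 and 4301 CPM in the dbx1b libraries, which overlap, and the part of notochord cells in the collagen levels was not tested.

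Among claudins and tight junction proteins, 9 of 34 tested members (26.5%) were separated with the nkx2.2a libraries above, 5 (14.7%) below and 20 not separated. Over all symbols the shares were 19.3% above and 21.3% below. The epithelial adhesion gene epcam stood at 186 and 189 CPM in the nkx2.2a libraries, 69.2 and 94.1 CPM in the olig2 libraries and 25.2 and 15.8 CPM in the dbx1b libraries (3.19 ± 0.51, edgeR adjusted p = 0.137 for nkx2.2a over dbx1b). The claudin gene cldnb stood at 43.1 and 64.3 CPM in the nkx2.2a libraries against 6.53 and 5.51 CPM in the dbx1b libraries (3.15 ± 0.90), and marveld2b, of the corners where 3 epithelial cells meet, at 31.2 and 27.6 CPM against 0.353 and 0.989 CPM (5.38 ± 1.38). The apical polarity gene crb2a stood at 96.0 and 69.8 CPM against 15.9 and 15 CPM (2.42 ± 0.60). Keratin genes of simple epithelium lay on the same side, with krt8 at 417 and 607 CPM in the nkx2.2a libraries against 118 and 87.9 CPM in the dbx1b libraries (2.31 ± 0.39, edgeR adjusted p = 0.153) and krt18 at 387 and 589 CPM against 193 and 97.1 CPM. Keratins have close copies among which reads may have been split, so single keratin genes are uncertain. Of 38 tested members of 42 on the epidermis list, 26 (68.4%) were separated above and 4 (10.53%) below, with a median of 1.42. The list summed to 3925 and 4489 CPM in the nkx2.2a libraries and 2115 and 1637 CPM in the dbx1b libraries. Of its defining markers, tp63, krt4, epcam and cdh1 were separated above, krt5 overlapped at 153 and 137 CPM against 142 and 87.5 CPM, and none was at 0 in any of the 4 libraries. The part of epidermal cells in the levels of grhl3, epcam, the claudins and the keratins was not tested.

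Hatching gland enzymes were abundant in the nkx2.2a libraries and nearly absent from the dbx1b libraries. The hatching enzyme gene he1a, a protease that dissolves the egg envelope, stood at 356 and 245 CPM in the nkx2.2a libraries, 1.22 and 25.5 CPM in the olig2 libraries and 0.176 and 2.97 CPM in the dbx1b libraries (7.51 ± 1.37, edgeR adjusted p = 0.153 for nkx2.2a over dbx1b). Its copy he1b stood at 143 and 110.2 CPM in the nkx2.2a libraries against 0 and 2.12 CPM in the dbx1b libraries, and the cathepsin L genes ctslb and ctsl1b at 349 and 162 CPM and at 324 and 142 CPM in the nkx2.2a libraries, against 0.176 and 5.79 CPM and 0.353 and 5.09 CPM in the dbx1b libraries. These are 2 sets of near copies, so each stands for its set and not for 1 gene. In the dbx1b sort nearly all of their fragments were in library 2, and he1b was at 0 in library 1. The hatching gland list summed to 1486 and 938 CPM in the nkx2.2a libraries against 166 and 264 CPM in the dbx1b libraries. Of its 11 tested members, 9 (81.8%) were above and 1 (9.09%) below, beside 19.3% and 21.3% over all symbols. The part of hatching gland cells in the enzyme levels was not tested.

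**Figure D4:**
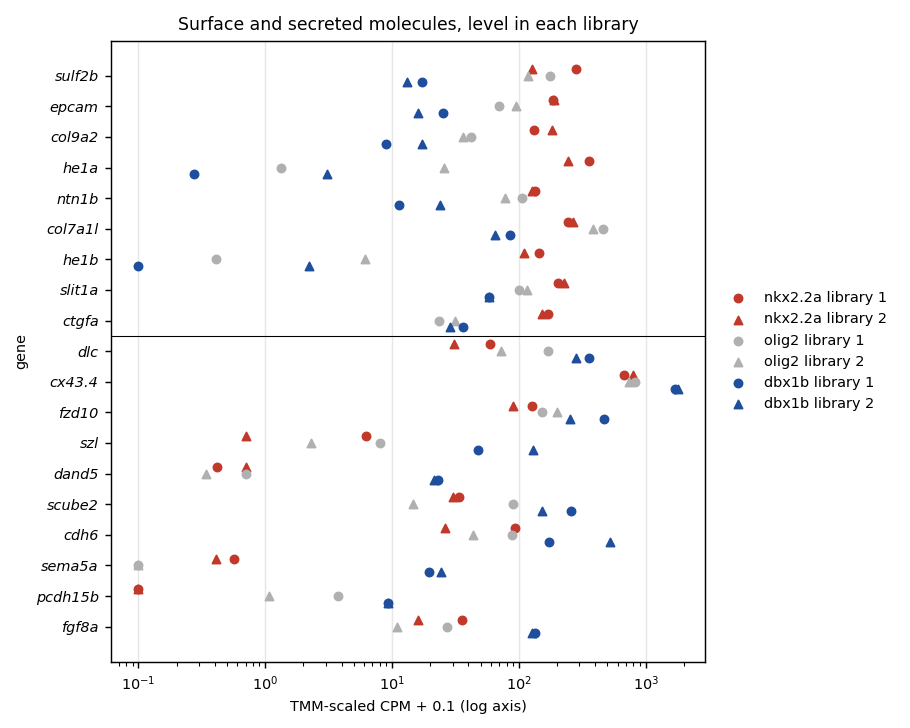
Level of 9 surface and secreted molecules with higher and 10 with lower levels, named by the smallest p in each direction, as TMM-scaled CPM plus 0.1 on a log axis, with 1 point per library. Genes were chosen among separated ones, which fixes the sides. Both nkx2.2a points (red) lie right of both dbx1b points (blue) in the upper 9 genes and left of them in the lower 10. The gene pcdh15b was at 0 in both nkx2.2a libraries.

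Among cadherins and protocadherins, 19 of 81 tested (23.5%) were above and 11 (13.6%) below, beside 19.3% and 21.3% over all symbols. The type II cadherin gene cdh6 stood at 93.6 and 26.0 CPM in the nkx2.2a libraries against 173 and 519.7 CPM in the dbx1b libraries (-2.53 ± 0.72), and pcdh8, known from paraxial mesoderm, at 16.0 and 3.06 CPM against 96.0 and 54.1 CPM. The protocadherin-15 gene pcdh15b had 0 fragments in the nkx2.2a libraries and stood at 9.18 and 9.18 CPM in the dbx1b libraries, at least 29.5-fold lower in the nkx2.2a sort. On the other side, the clustered protocadherin gene pcdh1a3 had 61 fragments in the nkx2.2a libraries but 0 in the dbx1b libraries, at least 26.9-fold higher, although members of that cluster share sequence and are uncertain as single genes. Immunoglobulin-type adhesion genes had 17 of 66 (25.8%) above and 9 (13.6%) below. Among them mcamb, an adhesion gene of vessels and other tissues, stood at 8.31 and 0.612 CPM against 54.2 and 68.0 CPM. The synaptic and leucine-rich repeat group had 10 of 34 (29.4%) above and 4 (11.8%) below. Its member amigo1 stood at 6.12 and 5.51 CPM in the nkx2.2a libraries with 0 fragments in the dbx1b libraries, at least 25.1-fold higher. Connexins, which form gap junctions, lay on both sides: cx43.4 stood at 679 and 792 CPM in the nkx2.2a libraries against 1700.0 and 1797 CPM in the dbx1b libraries (-1.25 ± 0.29), while cx35.4 stood at 2.98 and 33.1 CPM with 0 fragments in the dbx1b libraries. Of the integrins, 3 of 19 (15.8%) were above and 5 (26.3%) below, and the muscle integrin gene itga7 overlapped at 42.3 and 6.12 CPM against 6.71 and 3.67 CPM. Levels of the chemokine gene cxcl12b, a guidance cue for migrating cells, were 646 and 2518 CPM in the nkx2.2a libraries and 137 and 403 CPM in the dbx1b libraries (2.55 ± 0.65), separated but spread several-fold within each sort. The growth factor gene pdgfab stood at 2.82 and 102 CPM against 0 and 0.283 CPM, so that nkx2.2a library 2 alone lay far above the rest.

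Outside these families, the genes with the smallest p and higher levels in the nkx2.2a libraries were krt8 and actc1a, described above, and 4 more. The acyl-CoA-binding protein gene dbi stood at 214 and 331 CPM in the nkx2.2a libraries against 33.7 and 45.6 CPM in the dbx1b libraries (2.78 ± 0.49), the cofilin-like gene cfl1l at 197 and 264 CPM against 37.1 and 53 CPM, the cilia gene cfap46 at 19.9 and 42.6 CPM against 0.176 and 0.424 CPM, and txlnba at 133 and 29.1 CPM against 1.76 and 1.13 CPM. All 4 were separated by wide gaps, and txlnba, like actc1a, was several times higher in nkx2.2a library 1 than in library 2. With lower levels, nav2b, of the neuron navigator family, stood at 211 and 315 CPM in the nkx2.2a libraries against 1144 and 2061 CPM in the dbx1b libraries (-2.61 ± 0.40, edgeR adjusted p = 0.135). The small heat shock protein gene hspb1 stood at 609 and 818 CPM against 2334 and 2839 CPM (-1.86 ± 0.30), and stm, or starmaker, known from ear stones, at 322 and 249 CPM against 1394 and 1088 CPM (-2.12 ± 0.35). The amino acid transporter gene slc7a2 had 2 fragments in the nkx2.2a libraries but 697 in the dbx1b libraries, and exoc3l1, an exocyst-related gene, stood at 3.92 and 0.306 CPM against 129 and 289 CPM. The cyclin G1 gene ccng1 stood at 448 and 659 CPM against 1797 and 1559.7 CPM (-1.60 ± 0.32).

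Stress and cell cycle transcripts were lower in the nkx2.2a than in the dbx1b libraries, but the olig2 libraries lay on different sides for these lists. Of 29 tested stress and apoptosis genes, 15 (51.7%) were separated below and 3 (10.3%) above, beside 21.3% and 19.3% over all symbols. The list summed to 2174 and 2265 CPM in the nkx2.2a libraries against 5601 and 5812 CPM in the dbx1b libraries. The olig2 libraries, at 2595 and 2675 CPM, lay near the nkx2.2a libraries, so the dbx1b sort alone lay apart. The proapoptotic gene bbc3 (Puma) stood at 0.941 and 0.612 CPM against 30.9 and 28.8 CPM (-5.19 ± 1.34). The chaperone gene hsp90aa1.1, which muscle also uses, lay the other way, at 153 and 64.9 CPM in the nkx2.2a libraries against 12.4 and 16.2 CPM in the dbx1b libraries. Of 44 cell cycle genes, 26 (59.1%) were below and 2 (4.55%) above, with a median of -0.50, beside 21.3% and 19.3% over all symbols. Only 4 of the 44 were below by a gap of 1.5 times, beside 9.29% over all symbols, so most of these shifts were small. The list summed to 11921 and 11986 CPM in the nkx2.2a libraries against 16782 and 16124 CPM in the dbx1b libraries. Here the olig2 libraries, at 16476 and 15317 CPM, lay near the dbx1b libraries. The replication clamp gene pcna stood at 570.5 and 647 CPM against 1391 and 1099 CPM (-1.03 ± 0.30), and the mitotic phosphatase gene cdc25b at 238 and 197 CPM against 502 and 372 CPM. Immediate early genes, which dissociation can induce, had 9 of 29 (31.0%) below and 3 (10.3%) above. Among them egr1 stood at 50.5 and 33.1 CPM in the nkx2.2a libraries against 108 and 151 CPM in the dbx1b libraries. The part of cell stress, or of cell division, in the other differences was not tested.

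**Figure D5:**
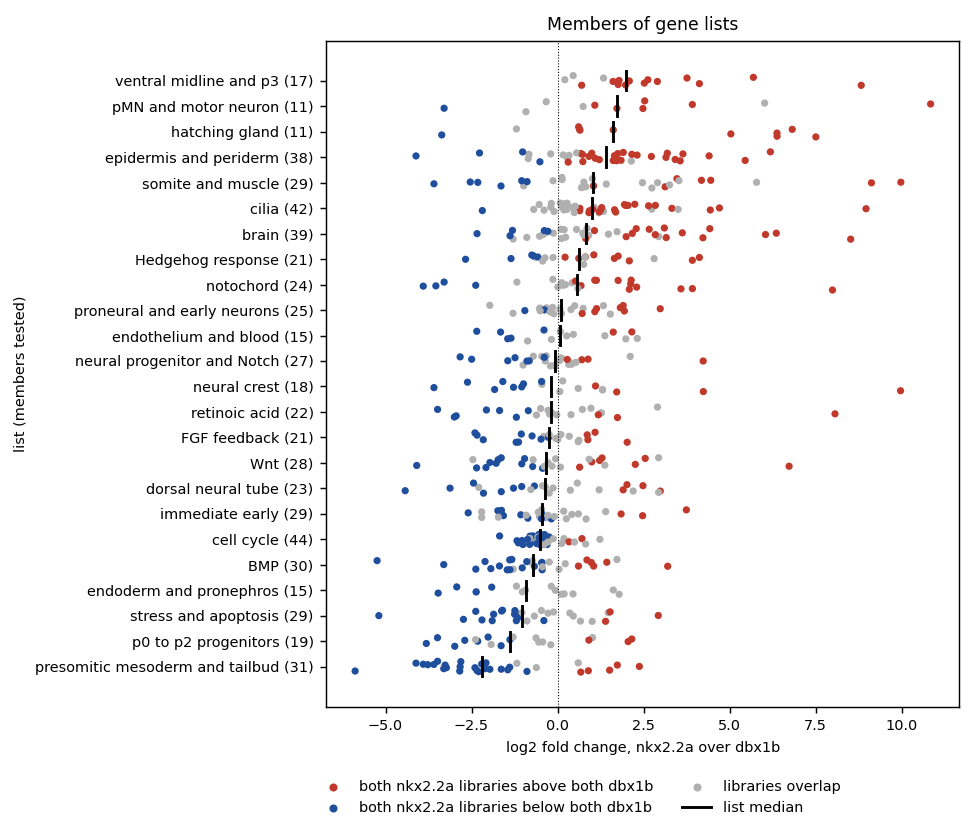
Log2 fold change (nkx2.2a over dbx1b) of each tested member of 24 gene lists, sorted by the list median (black bar), with the number tested in brackets. Red members had both nkx2.2a libraries above both dbx1b libraries and blue members both below. The medians run from 1.98 for ventral midline and p3 genes to -2.20 for presomitic mesoderm and tailbud genes. The ventral midline and p3 list includes the reporter gene nkx2.2a.

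The olig2 libraries place the separated genes between or beyond the sorts. Of the 149 factors above in the nkx2.2a libraries, the mean of the olig2 libraries lay between the means of the other sorts for 70 (47.0%), above both for 37 (24.8%) and below both for 42 (28.2%). Of the 192 below, it lay between for 98 (51.0%), above both for 40 (20.8%) and below both for 54 (28.1%). For the 220 surface and secreted molecules above, the olig2 mean lay between for 97 (44.1%) and below both for 81 (36.8%), and for the 153 below it lay between for 67 (43.8%) and below both for 57 (37.3%). Over all separated symbols it lay between for 43.0% of those above and 46.0% of those below. Since the separated genes were chosen for a distance between the outer sorts, these shares are a description and were not tested.

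Apart from nkx2.2a, none of the 52 genes named for the smallest p within factors, surface and secreted molecules, or other genes, or for its reporter, passed edgeR's test over all symbols, and their adjusted p-values ran from 0.135 to 0.451. DESeq2 called 50 of the 51 that are not reporters, and none of these 51 changed direction under any of the 14 alternative settings. These genes were chosen for separated libraries and small p in the same counts. Both outcomes therefore follow largely from that choice and add no support.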

How the data were processed

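The deposited values are the authors' raw read counts per RefSeq transcript, not normalised. Per the submitters' processing notes the tools were Bowtie 1.1.1 and FastQC 0.11.3 and the build was GRCz10, with no role stated. Every deposited count is even, so both mates of a fragment had been counted, and halved counts (fragments) were summed per symbol. Of 30677 symbols, 21329 were found in the RefSeq table of assembly GRCz12tu, which differs from the authors' build, and coordinates and sequences are not given. The treatment of reads that match several transcripts, and of strand, is not given in the labels. The test was edgeR 4.0.16 (R 4.3.3), with filterByExpr (minimum count 10), TMM scaling, 1 mean per group and a quasi-likelihood fit over all 6 libraries, leaving 3 residual degrees of freedom. The step was checked on simulated counts. Each edgeR SE was worked back from the test, as the absolute log2 fold change divided by the square root of the F statistic. It was not estimated separately, so for genes near 0 in a sort it is only a rough guide. CPM values are scaled fragments per 1000000 tested fragments. A floor of 3 fragments per sort and all counting intervals cover counting error only. Families were built from symbol patterns, and lists by hand. Named genes were the reporters, the 10 factors, 10 surface or secreted molecules and 6 other genes with the smallest p in each direction among separated genes of 5 CPM or more, and the next 2 of each family and list. The genes hoxa1a and the marker genes of cell types come in addition, hoxa1a after its values were seen, and a few named genes are not reported here. Families, lists and rules were chosen with earlier results of these data known. Alternatives were RLE scaling, no composition scaling, no filter, a filter of 1 CPM in 2 libraries, DESeq2 1.42.0, the replicate number as a block, the 4 libraries alone, counts as deposited, a gap of 1.5 times between sorts, and leaving out each library. The authors' FPKM tables were not used.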

Additional observations from a re-analysis of the deposited data

How the results depend on the processing

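The count of genes called was 1 with RLE scaling, without composition scaling, with a filter of 1 CPM and with counts as deposited. It was 226 with no filter, 307 with DESeq2, 20 with the 4 libraries alone, and 5 to 95 with a library left out, which also leaves fewer samples to estimate the spread. The cause of the other gains was not tested. With the replicate number as a block it was 8, but deviations of same-numbered libraries did not correlate (0.03, -0.01 and 0.01). The labels give no pairing, so the numbers are used here only to name libraries. With 2 libraries per sort this check cannot decide whether they were paired. The dbx1b reporter difference passed with no filter (-2.71) and with DESeq2 (-2.64). A gap of 1.5 times between sorts left 1639 symbols above and 1575 below, 80 and 109 factors, and 130 and 88 surface and secreted molecules. Leaving out a library of either sort gave 5462 to 7196 symbols above and 6190 to 7838 below, 243 to 283 and 282 to 341 factors, and 319 to 415 and 261 to 344 surface and secreted molecules, more by construction, since fewer libraries must be separated. Among the other results, 536 gene values kept their side of the threshold, 178 moved past it and 0 reversed, and 767 medians of families and lists moved by less than the spread while 115 moved further. The gene values belong to genes chosen as separated in these data, so reversals were unlikely by construction. Scaling moved the median of all genes by under 0.1, to 0.03 with RLE and 0.02 without scaling. Depth limits genes near the floor of 3 fragments, most in nkx2.2a library 2.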

Other observations

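Genes of motile cilia, which floor plate cells carry, were more abundant in the nkx2.2a libraries. Of 42 tested members of 48, 21 (50%) were separated above and 1 (2.38%) below, with a median log2 fold change of 0.99, beside 19.3% and 21.3% over all symbols. The list summed to 1478 and 1529 CPM in the nkx2.2a libraries against 862 and 907 CPM in the dbx1b libraries. The radial spoke and axoneme gene spag16 stood at 13.8 and 11.3 CPM in the nkx2.2a libraries with 0 fragments in the dbx1b libraries, at least 55.1-fold higher, and the dynein heavy chain gene dnah6 at 31.2 and 72.6 CPM against 7.94 and 2.4 CPM. The cilia regulator gene foxj1b was separated, at 36.1 and 73.2 CPM against 16.9 and 10.7 CPM, whereas its relative foxj1a overlapped, at 36.1 and 20.8 CPM against 0 and 22.5 CPM. None of these genes passed edgeR's test over all symbols.

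Early neuron genes had 7 of 25 tested members (28%) above and 2 (8%) below, beside 19.3% and 21.3% over all symbols. Their median log2 fold change was 0.11, and their sums overlapped between the sorts. Those sums were 2498 and 2196 CPM in the nkx2.2a libraries against 2243 and 2111 CPM in the dbx1b libraries. The zinc finger gene insm1b, of newly formed neurons and neuroendocrine cells, stood at 67.6 and 83 CPM in the nkx2.2a libraries against 21.7 and 20.8 CPM in the dbx1b libraries, and insm1a at 35.6 and 39.8 CPM against 15.5 and 4.1 CPM. The pan-neuronal gene elavl3 overlapped between the sorts, at 706 and 433 CPM against 447 and 359.6 CPM. Of the other neuron markers, elavl4 and stmn2b overlapped at low levels. The marker isl1 was separated above by a narrow gap, at 11.9 and 19.3 CPM against 3.35 and 11.3 CPM. The blood gene gata1a stood at 0 and 4.29 CPM in the nkx2.2a libraries against 0 and 1.55 CPM in the dbx1b libraries, and the endoderm gene sox17 at 0 and 0.612 CPM against 0 and 2.97 CPM. The forkhead gene foxa3, also on the endoderm list, was more abundant and overlapped, at 56.9 and 17.1 CPM in the nkx2.2a libraries against 54.5 and 115.7 CPM in the dbx1b libraries. The endothelial genes kdrl and fli1a overlapped, with kdrl at 11.8 and 28.8 CPM against 14.1 and 31.7 CPM. Separated below were tal1, by a narrow gap, at 12.1 and 11.6 CPM against 13.9 and 17.2 CPM, and the blood gene hbbe1.1. Levels of hbbe1.1 were 0.784 and 7.96 CPM against 11.5 and 12.2 CPM. On the endothelium and blood list, 5 of 15 tested members (33.3%) were below and 2 (13.3%) above, beside 21.3% and 19.3% over all symbols. Of the neural crest markers, tfap2a, which epidermis also uses, was separated above, at 59.6 and 42.6 CPM against 14.5 and 16.5 CPM. The marker sox10 was above too, at 5.49 and 5.51 CPM against 4.41 and 0.706 CPM. In contrast, foxd3 was separated below, at 5.33 and 16.5 CPM against 20.8 and 22.5 CPM, while crestin overlapped, at 56.1 and 106 CPM against 83.3 and 62.7 CPM. On the neural crest list, 8 of 18 tested members (44.4%) were below and 4 (22.2%) above, with a median of -0.19.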
